A study of Mus musculus with 6 samples.

Results

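Odorant receptors with symbols from Olfr311 to Olfr331, Olfr376 to Olfr412 or Olfr1372 to Olfr1396 were described in sorted cells of the mouse main olfactory epithelium. The symbols alone chose them, and RefSeq places all 51 that were measured on chromosome 11. They are 51 of 1015 measured odorant receptors and of 19938 genes tested, 15 from the first number range, 21 from the second and 15 from the third. A further 12 RefSeq genes with symbols in these ranges had no probe set of their own and were not analysed here. Apart from this, 13 probe sets name a receptor of the ranges together with another gene, and these were left out. How far the 12 genes are those on the 13 probe sets was not examined.

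The cells came from embryos at E18.5 on a C57BL/6 background. Both genotypes carried a targeted Fezf1 allele in which EGFP is driven by the gene's own promoter, and cells using that promoter were sorted by flow cytometry from dissected epithelium. There were 3 arrays of Fezf1+/- cells (heterozygous) and 3 arrays of Fezf1-/- cells (null), and the comparison addressed what changes in such cells without Fezf1, a zinc-finger transcription factor. No wild-type cells and no cells outside the EGFP gate were among the samples, and whether an array stands for 1 embryo or a pool is not stated. Signals are log2 values per probe set, and every difference is null minus heterozygous in log2 units, so that a negative value is a lower signal in null cells. Probe sets were ranked by signal only to choose some of the receptors named, and no difference in level between genes is reported.

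A mature olfactory sensory neuron transcribes a single allele of a single odorant receptor gene, chosen from a family that lies in clusters on many chromosomes. The receptor couples to the olfactory G protein and adenylate cyclase, and it also guides the axon to its target in the olfactory bulb. Choice depends on enhancers and promoters bound by the LIM-homeodomain protein Lhx2 and by early B-cell factors. In RNA from a population, the signal of a receptor therefore follows both how many neurons chose it and how much RNA each holds, and fewer cells and less RNA per cell cannot be told apart here.

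Fezf1 checked the labels. It stood at 11.25, 11.12 and 11.30 on the heterozygous arrays and at 5.56, 5.92 and 6.28 on the null arrays, and it fell by 5.31 (SE 0.19, adjusted p = 0.000755). Markers of mature olfactory neurons were bright on the sorted-cell arrays, with a mean over 11 genes of 9.84 to 10.42 in heterozygous cells and of 7.70, 9.27 and 9.34 on null replicates 1, 2 and 3. Null replicate 1 stood apart. Its correlations with the other arrays over all genes ran from 0.905 to 0.935, against 0.975 to 0.995 among those 5, and the counts and medians of the receptors are therefore given with it and without it. All 7 mesenchyme and bone markers were higher on it than on both other null arrays, with list means of 6.18 to 7.43 in heterozygous cells and of 9.97, 6.94 and 6.47 on the null arrays. The 7 myeloid markers did the same (5.12 to 5.31, against 7.18, 5.23 and 5.15), as did the 5 endothelial markers (5.09 to 5.84, against 7.02, 5.34 and 5.33). The part of these other cells in the receptor values was not tested.

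By the order of genes in RefSeq, the 51 receptors formed 4 clusters, where a new cluster begins after more than 5 measured genes that are not odorant receptors. The first runs from Olfr1396 to Olfr1382 with 13 members, the second holds Olfr1378 and Olfr1377, the third runs from Olfr330 to Olfr311 with 15, and the last from Olfr376 to Olfr412 with 21. They belong to 15 sequence families by the MOR number in RefSeq's synonyms. The 6 families with 3 or more members hold 40 of the 51: MOR135 with 14, MOR256 with 12, MOR255 with 5, and MOR275, MOR285 and MOR222 with 3 each. Members of one family are similar in sequence, so a probe set for one may also bind RNA of another.

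**Figure D1:**
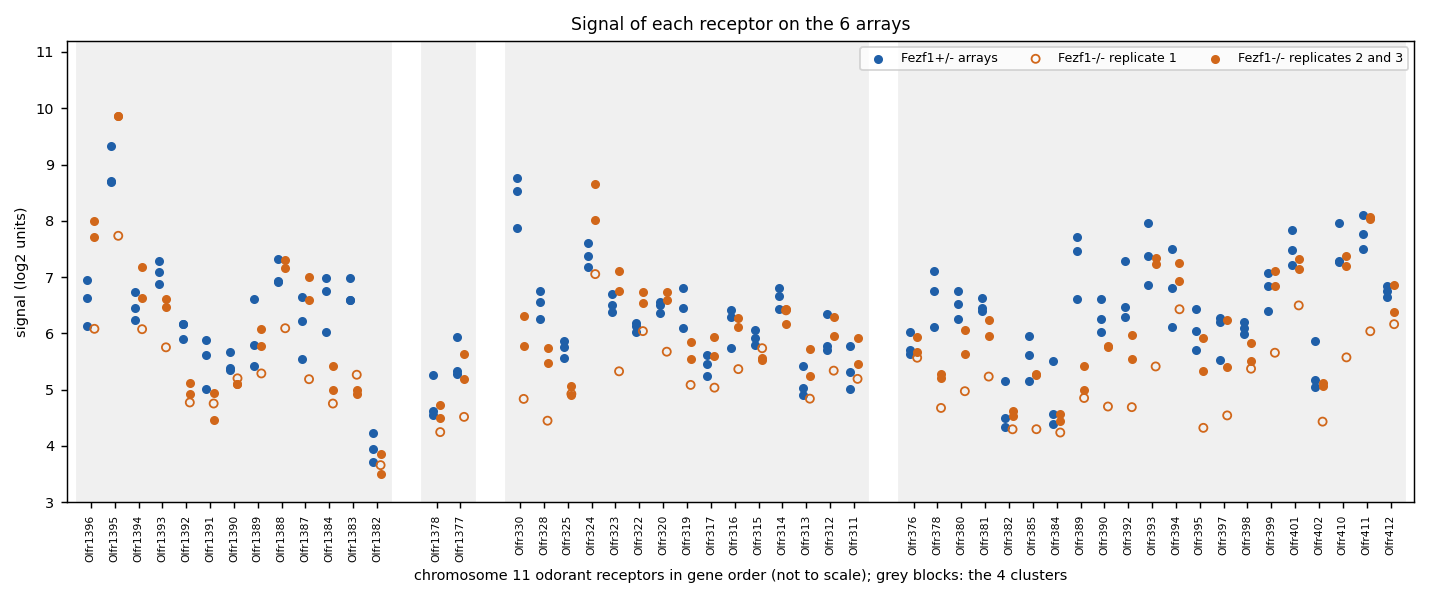
Signal in log2 units of each of the 51 receptors on the 3 heterozygous arrays (blue) and the 3 null arrays (orange, replicate 1 as open circles), with genes in chromosomal order. Null replicate 1 was the lowest null array for 44 of the 51 receptors, and the values of Olfr330 and Olfr389 separate by genotype while those of Olfr394 overlap.

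Few of these receptors passed the adjusted test, while 19 of them were lower on every null array than on any heterozygous one. Of the 51, 2 fell and 0 rose in null cells by limma at an adjusted p under 0.05, where 0.456% of all genes tested fell and 0.0953% rose. Among the 964 other odorant receptors 76 fell, or 7.88%, and 0 rose. At an unadjusted p under 0.05, 18 of the 51 were lower and 0 higher, against 5.25% lower and 4.23% higher over all genes and 431 lower among the other receptors (44.7%). All 3 null values lay below all 3 heterozygous values in 19 receptors, or 37.3%, where 8.77% of all genes and 45.4% of the other receptors did so. In 0 receptors did all null values lie above, where 9.72% of all genes did.

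The 2 receptors that fell lie in the first cluster and belong to family MOR256. Olfr1383 stood at 6.60, 6.59 and 6.99 on the heterozygous arrays and at 5.26, 4.99 and 4.91 on the null arrays. The groups did not overlap, and null replicate 1 was the highest of the null arrays here. The difference was -1.67 (SE 0.16, adjusted p = 0.0165), a 3.18-fold lower signal. Olfr1392 stood at 6.17, 5.90 and 6.17 in heterozygous and at 4.77, 4.93 and 5.11 in null cells, again without overlap (difference -1.15, SE 0.13, adjusted p = 0.0286). This was 2.21-fold lower. Both were called again without null replicate 1, at -1.77 (adjusted p = 0.00221) and -1.06 (adjusted p = 0.0094). Neither was called when heterozygous replicate 1, 2 or 3 or null replicate 2 or 3 was left out, with differences from -1.77 to -1.54 for Olfr1383 and from -1.24 to -1.06 for Olfr1392 over all 6 such fits and adjusted p reaching 0.103 and 0.183. With the replicate number as a block the adjusted p were 0.0776 and 0.0897 at the same differences, and with arrays centred on the other odorant receptors the differences were -0.68 (adjusted p = 0.139) and -0.15 (adjusted p = 0.706).

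As a group the chromosome 11 receptors lay lower in null cells, with 41 of 51 negative differences (80.4%), where 45.2% of all genes and 93.2% of the other odorant receptors were negative. Their median was -0.40, against -0.74 for the other receptors and 0.02 for all genes, and it turned to 0.59 when each array was centred on the other odorant receptors, which moved every difference by 0.99. After that centring the median of the other receptors was 0.25. The members' differences ran from -2.76 to 0.70 and those of the other receptors from -5.45 to 1.21. No test was made of the members against the other receptors. On the single null arrays the members lay a median of -0.96, -0.26 and -0.21 from the heterozygous mean for replicates 1, 2 and 3.

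**Figure D2:**
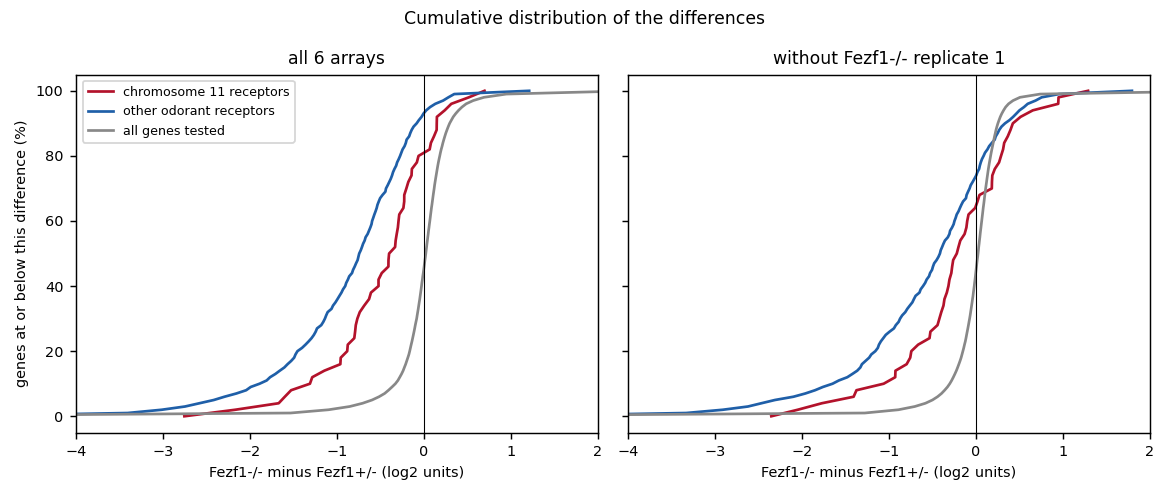
Cumulative share of genes (percent) by null minus heterozygous difference in log2 units, as deposited, for the 51 chromosome 11 receptors (red), the 964 other odorant receptors (blue) and all 19938 genes tested (grey), from all 6 arrays and without null replicate 1. The red curve lies between the other two at the median in both panels: -0.40 against -0.74 and 0.02 on the left, and -0.22 against -0.42 and 0.02 on the right.

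Without null replicate 1 more receptors passed the adjusted test and more differences were positive. In those 5 arrays 6 fell (Olfr1383, Olfr1392, Olfr330, Olfr389, Olfr325 and Olfr328), where 1.67% of all genes fell, and 1 rose (Olfr1396), where 0.993% rose. Of the other odorant receptors 182 fell (18.9%) and 4 rose (0.415%). The members' median was -0.22 and that of the other receptors -0.42. Differences were positive in 18 of 51 members (35.3%), against 26.1% of the other receptors and 55.3% of all genes. At an unadjusted p under 0.05, 18 were lower and 5 higher, where 8.68% and 7.63% of all genes were. Among the 964 other odorant receptors 417 were lower and 58 higher. Both remaining null values lay below every heterozygous value in 19 members (37.3%), where 16.3% of all genes and 45.5% of the other receptors did. They lay above in 6 members, Olfr1396, Olfr1395, Olfr324, Olfr323, Olfr322 and Olfr320. That is 11.8%, under the 19.9% of all genes and over the 7.26% of the other receptors. Of these 6 members only Olfr322 belongs to family MOR256.

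**Figure D3:**
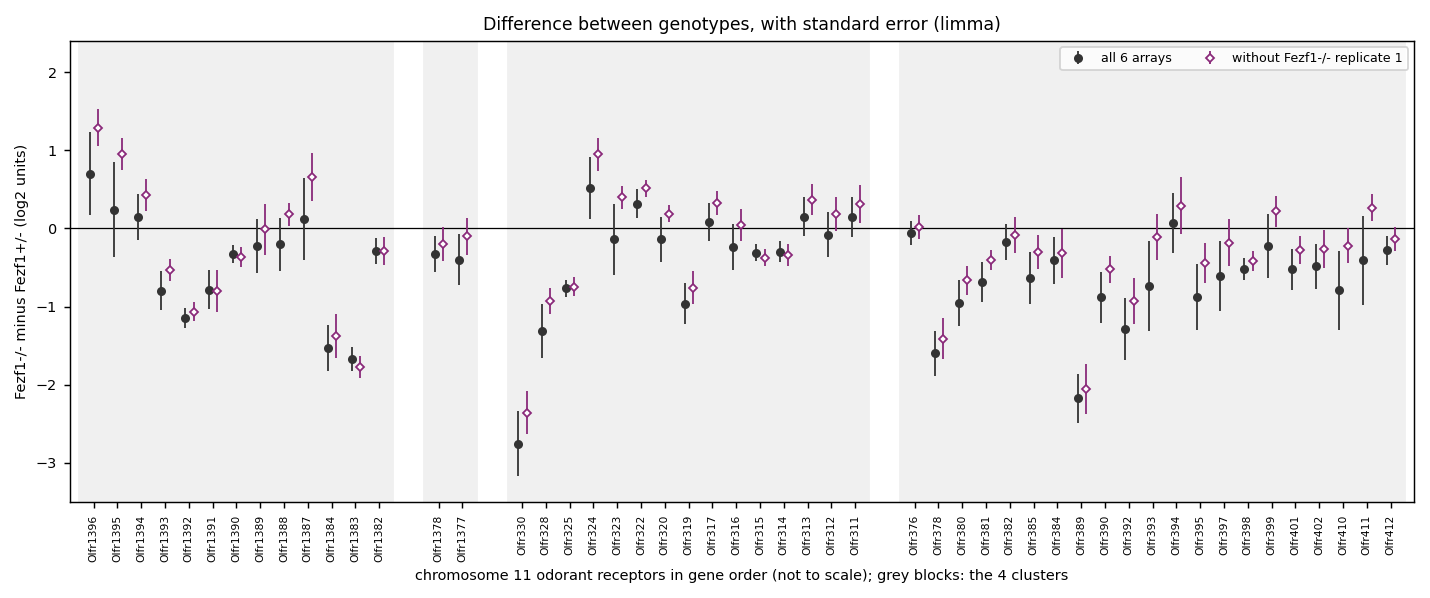
Null minus heterozygous difference in log2 units, as deposited, with its standard error from limma for each of the 51 receptors in chromosomal order, from all 6 arrays (filled circles) and without null replicate 1 (open diamonds). Lower values recur at separate places in 3 of the 4 clusters, at Olfr1384 and Olfr1383 (-1.53 and -1.67), at Olfr330 (-2.76) and at Olfr378 and Olfr389 (-1.60 and -2.17), with smaller differences between them.

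In the first cluster, changes differed between neighbours. The first 3 genes in order, Olfr1396, Olfr1395 and Olfr1394, are the only measured members of families MOR276, MOR277 and MOR280, and all 3 had positive differences. Olfr1396 stood at 6.62, 6.12 and 6.95 in heterozygous cells and at 6.08, 8.004 and 7.70 in null cells. Null replicate 1 was below every heterozygous array and null replicates 2 and 3 above every one. Over all arrays the difference was 0.70 (SE 0.53, adjusted p = 0.714), and without null replicate 1 it rose by 1.29 (SE 0.24, adjusted p = 0.0442), a 2.45-fold higher signal. Olfr1395 stood at 8.70, 8.70 and 9.34 in heterozygous and at 7.73, 9.86 and 9.87 in null cells. It showed the same split, with a difference of 0.24 over all arrays (95% interval from -1.24 to 1.72) that turned to -0.11 and -0.12 without null replicate 2 and 3. Without null replicate 1 it was 0.95 (SE 0.20, adjusted p = 0.0704).

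The next 3 genes lay on the other side. Olfr1393, Olfr1392 and Olfr1391, all of MOR256, differed by -0.80, -1.15 and -0.78, and in each the genotypes did not overlap. The MOR256 genes after them, Olfr1390, Olfr1389, Olfr1388 and Olfr1387, lay between -0.33 and 0.12. Then came Olfr1384, at 6.02, 6.74 and 6.99 in heterozygous and 4.75, 4.9997 and 5.41 in null cells, with a difference of -1.53 (SE 0.29, adjusted p = 0.14) that did not pass. From Olfr1387 to Olfr1384 the difference dropped by 1.64, and from Olfr1383 to Olfr1382 it went up by 1.38. Olfr1382 lay below the lower quartile of signals (4.30 to 4.44 across arrays) on every array of both genotypes, so little change could be seen in it.

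The third cluster opens with family MOR275, whose 3 receptors in these symbol ranges all had negative differences. Of the other odorant receptors 93.2% had negative differences, and of all genes 45.2%. Olfr330 stood at 8.76, 7.87 and 8.53 on the heterozygous arrays and at 4.83, 5.77 and 6.30 on the null arrays. The groups were far apart, but the null arrays spread over more than 1 log2 unit. The difference was -2.76 (SE 0.42, adjusted p = 0.07), the lowest among the 51, and it passed without null replicate 1 (-2.36, SE 0.28, adjusted p = 0.00974), where the signal was 5.12-fold lower. Olfr328 stood at 6.56, 6.26 and 6.75 against 4.45, 5.73 and 5.46, with differences of -1.31 (SE 0.35, adjusted p = 0.293) and, without null replicate 1, -0.93 (adjusted p = 0.0394). Olfr325 had 5.86, 5.56 and 5.76 against 4.92, 5.05 and 4.91, the tightest null group of the 3. Its differences were -0.76 (SE 0.11, adjusted p = 0.0635) and -0.74 without null replicate 1 (adjusted p = 0.027).

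Another MOR275 gene, Olfr224, lies between Olfr328 and Olfr325 and is outside the symbol ranges. It is named here after its values were seen. Its heterozygous signals were 6.98, 6.76 and 6.84 and its null signals 3.83, 3.23 and 3.59, and it fell by 3.31 (SE 0.17, adjusted p = 0.00216). Its null signals were under each array's lower quartile, and a fold is therefore not given. The probe sets of these 4 similar genes may share RNA.

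Past this block the third cluster changed sign at its next gene. Olfr324, the only MOR102 receptor measured in these symbol ranges, stood at 7.60, 7.18 and 7.37 in heterozygous and at 7.05, 8.01 and 8.66 in null cells. The difference was 0.52 (SE 0.40, adjusted p = 0.717), and without null replicate 1 it was 0.95 (SE 0.21, adjusted p = 0.0819), which did not pass. The 1 MOR102 receptor outside the ranges went the other way. It differed by -2.06 over all arrays and by -1.24 without null replicate 1, and it passed in neither set. Olfr322 of MOR256 had 6.19, 6.14 and 6.02 against 6.04, 6.53 and 6.73 (0.32, SE 0.19, adjusted p = 0.653, and 0.51 with adjusted p = 0.0664 without null replicate 1). The remaining genes down to Olfr311 lay between -0.96 (Olfr319) and 0.15, and the 3 MOR222 receptors at the end of the cluster, Olfr313, Olfr312 and Olfr311, lay at 0.15, -0.08 and 0.15. The 1 MOR222 receptor outside the ranges, Olfr1350 on chromosome 7, differed by 1.21 over all arrays (adjusted p = 0.53) and by 1.80 without null replicate 1 (adjusted p = 0.00601).

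The last cluster had 20 of 21 negative differences, where 45.2% of all genes and 93.2% of the other odorant receptors were negative, and a median of -0.61 (-0.27 without null replicate 1), although none of its members passed over all 6 arrays. Medians were -0.32 for Olfr1372 to Olfr1396 and -0.14 for Olfr311 to Olfr331, the latter turning to 0.18 without null replicate 1, and all 3 medians turned positive when arrays were centred on the other odorant receptors. In this cluster null replicate 1 was the lowest null array for all 21 receptors. Olfr389 of MOR135 stood at 6.60, 7.46 and 7.71 in heterozygous and at 4.85, 5.42 and 4.99 in null cells. The difference was -2.17 (SE 0.31, adjusted p = 0.0646), and without null replicate 1 it fell by 2.05 (adjusted p = 0.0254). Olfr389 also passed without heterozygous replicate 1 (-2.50, adjusted p = 0.034), and in none of the other fits leaving out 1 array. Olfr378, also of MOR135, had 6.76, 6.11 and 7.10 against 4.67, 5.28 and 5.21, again without overlap (-1.60, SE 0.29, adjusted p = 0.126, and -1.41 with adjusted p = 0.0506 without null replicate 1).

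In 7 of the 21 receptors all null values lay below all heterozygous values, where 8.77% of all genes and 45.4% of the other odorant receptors did so: Olfr378, Olfr389, Olfr380, Olfr381, Olfr390, Olfr392 and Olfr398. The other 14 overlapped. Olfr394 of MOR135 stood at 6.11, 6.81 and 7.49 and at 6.43, 6.94 and 7.24, with a difference of 0.07 (95% interval from -0.87 to 1.01). Olfr376, the first gene, had 6.02, 5.63 and 5.70 against 5.57, 5.66 and 5.93 (-0.06, 95% interval from -0.43 to 0.31). In all 5 MOR255 receptors the genotypes overlapped. Olfr411 stood at 7.49, 7.76 and 8.11 in heterozygous and at 6.04, 8.04 and 8.07 in null cells, so that null replicates 2 and 3 lay among the heterozygous arrays and replicate 1 below them. Its difference was -0.41 (SE 0.57, adjusted p = 0.826), and 0.27 without that array. Olfr410 (7.28, 7.26 and 7.96 against 5.57, 7.37 and 7.19) had differences of -0.79 and, without that array, -0.22. Olfr401 (7.22, 7.47 and 7.84 against 6.50, 7.15 and 7.32) had -0.52 and -0.27.

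**Figure D4:**
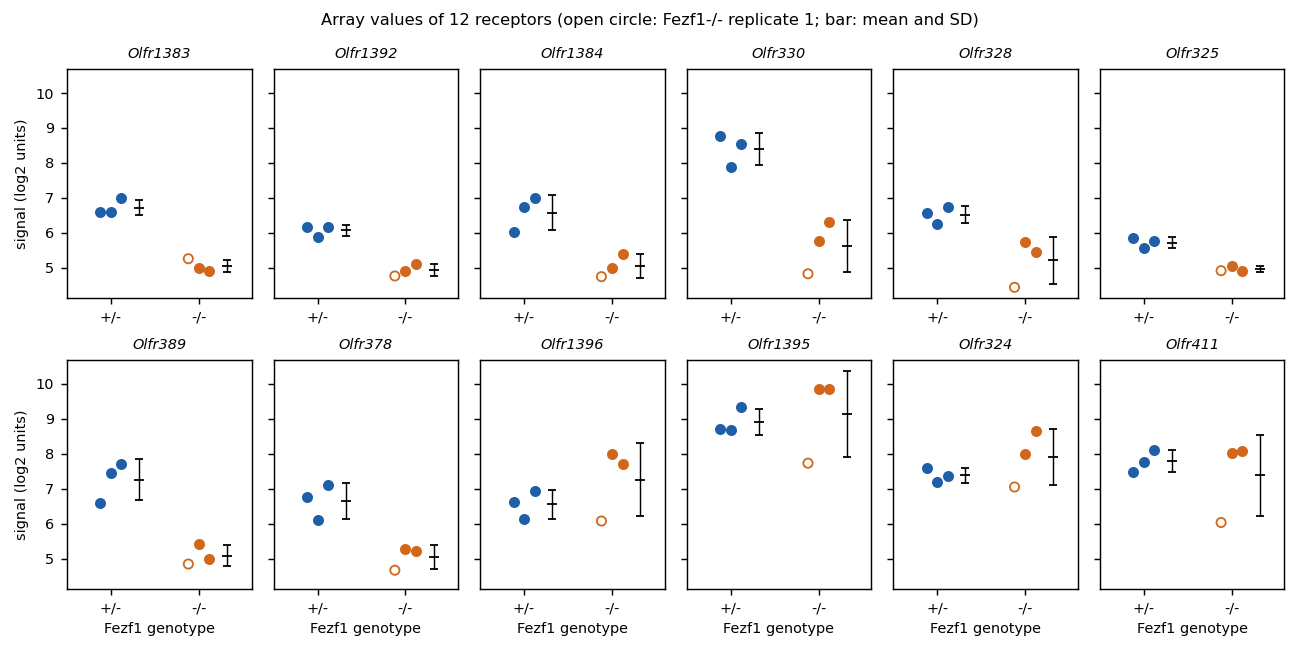
Signal in log2 units on each array for 12 of the named receptors, by Fezf1 genotype, with null replicate 1 as an open circle and the mean and SD of 3 arrays beside the points. In the first 8 panels all null values lie below all heterozygous values, and in the panels of Olfr1396, Olfr1395 and Olfr324 null replicates 2 and 3 lie above the heterozygous arrays and null replicate 1 below them.

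By family, members did not move as one. MOR256 differences ran from -1.67 to 0.32 with a median of -0.31, 2 of 12 fell, where 0.456% of all genes and 7.88% of the other odorant receptors did, and 6 of 12 showed no overlap between genotypes, where 8.77% and 45.4% did. The 30 MOR256 receptors outside these symbol ranges had a median of -0.65, 4 of them fell, and they ran from -3.52 to 0.27. MOR135 differences ran from -2.17 to 0.07 with a median of -0.71, which was -0.36 without null replicate 1. MOR255 ran from -0.79 to -0.23 with medians of -0.48 and -0.22, and MOR275 from -2.76 to -0.76. MOR285 ran from -0.96 to -0.14 with a median of -0.23 that turned to 0.04 without that array, and MOR222 ran from -0.08 to 0.15 with medians of 0.15 and 0.31. Over all arrays, centring on the other odorant receptors adds 0.99 to each of these differences and medians. That amount does not apply to the medians without null replicate 1, where the shift was smaller.

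**Figure D5:**
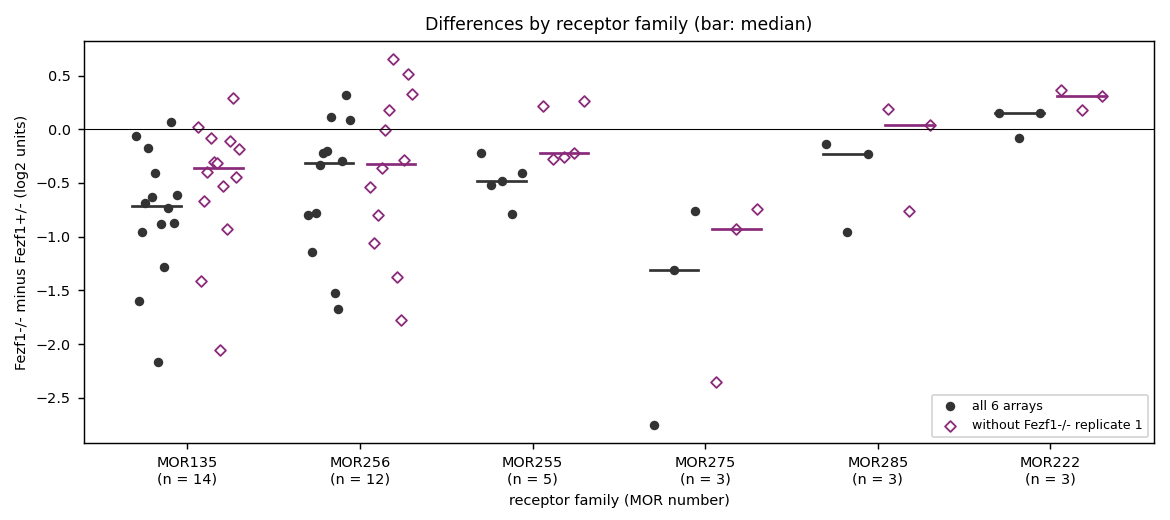
Null minus heterozygous difference in log2 units, as deposited, for the members of the 6 receptor families with 3 or more members, from all 6 arrays (filled circles) and without null replicate 1 (open diamonds), with a bar at the median. MOR275 has the lowest median (-1.31, and -0.93 without that array), and MOR222 lies around 0.

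Sequences upstream of the receptors were taken from RefSeq (GRCm38.p6), as 250 bases before and 50 after the annotated start of the gene. Entries were found for 43 of the 51 receptors. In 30 of them the annotated start is the coding start itself, since the base after it opens with ATG, so that only the other 13 windows lie at an annotated transcript start. Shown are 6 of these 13: the called receptor Olfr1392, Olfr330 with the lowest difference, Olfr324 with a positive one, and the MOR135 members Olfr378, Olfr389 and Olfr392, which had no overlap between genotypes. Capitals mark matches, on either strand, to TAATTA, a homeodomain core, or to a loose form of the early B-cell factor core. The strict core is TCCC, any 2 bases and GGGA. The loose form is TCCC, any 3 bases and GGA, so that it takes in every strict match, and it was chosen after the windows were seen. The windows are chr11:49293047-49293346 on the plus strand for Olfr1392, chr11:58534776-58535075 on the minus strand for Olfr330, chr11:58597095-58597394 on the plus strand for Olfr324, chr11:73428428-73428727 on the minus strand for Olfr378, chr11:73780540-73780839 on the minus strand for Olfr389 and chr11:73816828-73817127 on the minus strand for Olfr392, each printed 5′ to 3′ along the gene's strand.
Olfr1392: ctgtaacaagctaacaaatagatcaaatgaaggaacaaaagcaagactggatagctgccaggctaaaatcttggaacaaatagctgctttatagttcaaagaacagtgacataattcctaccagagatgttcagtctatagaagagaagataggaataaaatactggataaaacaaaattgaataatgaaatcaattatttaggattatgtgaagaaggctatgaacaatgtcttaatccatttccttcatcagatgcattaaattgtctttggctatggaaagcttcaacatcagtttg
Olfr330: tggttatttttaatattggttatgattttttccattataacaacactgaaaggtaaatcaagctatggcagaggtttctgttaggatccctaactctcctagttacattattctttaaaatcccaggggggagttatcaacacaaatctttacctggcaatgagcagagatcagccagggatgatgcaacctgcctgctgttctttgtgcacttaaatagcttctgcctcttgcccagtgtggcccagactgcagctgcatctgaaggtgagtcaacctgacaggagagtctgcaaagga
Olfr324: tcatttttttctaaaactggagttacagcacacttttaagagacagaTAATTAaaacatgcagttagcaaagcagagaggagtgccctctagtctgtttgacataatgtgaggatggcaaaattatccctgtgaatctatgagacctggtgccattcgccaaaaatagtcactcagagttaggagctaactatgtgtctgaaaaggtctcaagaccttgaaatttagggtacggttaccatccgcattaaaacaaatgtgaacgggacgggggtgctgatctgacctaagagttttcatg
Olfr378: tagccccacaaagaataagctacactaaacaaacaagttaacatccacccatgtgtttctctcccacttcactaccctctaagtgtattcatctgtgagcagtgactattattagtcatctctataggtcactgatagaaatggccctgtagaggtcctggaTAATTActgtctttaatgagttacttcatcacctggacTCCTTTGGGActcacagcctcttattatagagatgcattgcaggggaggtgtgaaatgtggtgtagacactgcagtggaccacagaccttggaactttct
Olfr389: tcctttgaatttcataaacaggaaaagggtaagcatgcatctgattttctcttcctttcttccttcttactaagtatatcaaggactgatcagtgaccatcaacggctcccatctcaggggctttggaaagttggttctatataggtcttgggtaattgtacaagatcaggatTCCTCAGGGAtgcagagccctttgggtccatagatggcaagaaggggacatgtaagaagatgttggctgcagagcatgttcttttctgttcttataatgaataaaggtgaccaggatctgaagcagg
Olfr392: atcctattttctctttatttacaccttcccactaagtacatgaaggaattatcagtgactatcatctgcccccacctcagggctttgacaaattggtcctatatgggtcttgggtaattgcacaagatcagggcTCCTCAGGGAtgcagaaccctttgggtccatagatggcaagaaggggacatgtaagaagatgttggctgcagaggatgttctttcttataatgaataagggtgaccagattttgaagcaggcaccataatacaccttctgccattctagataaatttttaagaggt

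The loose core was found in 3 of the 13 windows, those of Olfr378, Olfr389 and Olfr392, on the strand opposite to the gene, and the leftmost base of the match as printed is at -50, -77 and -116 from the start. It stands in 4.47% of all 32851 windows and in 6.1% of the 246 windows of other odorant receptors that do not start at the coding start. Olfr392, named here after its window was seen, stood at 6.29, 6.47 and 7.28 in heterozygous and at 4.69, 5.96 and 5.54 in null cells (-1.28, SE 0.40, adjusted p = 0.388). The windows of Olfr389 and Olfr392 share an identical run of 57 bases, and are therefore not independent cases. The strict core was in 0 of the 13 windows, in 0.904% of all windows and in 0.813% of the other receptors' windows. TAATTA was in 2 of the 13, Olfr324 and Olfr378, whose differences had opposite signs, and in 5.29% of all windows and 18.7% of the other receptors' windows. A match describes letters in a window, and binding was not measured.

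By limma's adjusted test no gene beside or between the receptors passed, where 0.456% of all genes fell and 0.0953% rose over all arrays. With shares this small, lists of 40 and 8 genes are too short for such a count to show whether they differ from all genes. Of the 40 measured genes that are not odorant receptors and lie next to the ends of the 4 clusters, 5 to a side, 0 passed by limma with or without null replicate 1. At an unadjusted p under 0.05, 1 was higher over all arrays, where 4.23% of all genes were, and 3 without null replicate 1, where 7.63% were. Their differences ran from -0.26 to 0.64 with a median of 0.07. Of 8 measured genes between receptors of a cluster 0 passed by limma in either set of arrays. The only 1 with an unadjusted p under 0.05 over all arrays was Fam183b in the third cluster (6.56, 6.61 and 6.16 against 5.98, 5.89 and 5.78, a difference of -0.56 with adjusted p = 0.287). Without null replicate 1 it had such a p again, as did Trim58 on the higher side (0.34), 2 of the 8. Of all genes, 5.25% were lower at such a p over all arrays. Without null replicate 1, 8.68% of all genes were lower and 7.63% higher. A p that misses the threshold does not show that a gene was unchanged. The 18 other odorant receptors that RefSeq places on chromosome 11 had a median of -0.35 (-0.05 without null replicate 1), and over all arrays 1 of them fell, Olfr224.

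Genes with which these receptors signal and reach the membrane were read on the same arrays. All 18 measured genes of the transduction and trafficking list had negative differences, from -1.83 to -0.22 with a median of -1.18. By limma 0 passed, while at an unadjusted p under 0.05 there were 13 on the lower side, where 5.25% of all genes and 44.7% of the odorant receptors outside these ranges were. The calcium exchanger gene Slc24a4 stood at 7.54, 7.51 and 7.91 in heterozygous and at 6.72, 6.38 and 6.64 in null cells, with adjusted p = 0.0635. Without null replicate 1, 6 of the 18 fell, where 1.67% of all genes did, and among them Omp, which encodes olfactory marker protein, stood at 11.84, 11.82 and 12.12 against 10.77 and 10.84. Of 18 measured regulators of receptor choice 0 passed, and 1 lay lower with an unadjusted p under 0.05, a share near the 5.25% of all genes. Their median was -0.15, and it turned to 0.04 without null replicate 1. Ebf4, an early B-cell factor, differed by -0.82 (adjusted p = 0.46), and without null replicate 1 only Nfix fell, by 0.72. All 11 mature neuron markers, most of them also in the transduction and trafficking list, had negative differences over all arrays, where 45.2% of all genes did. On null replicate 1, 11 of 11 were lower than on both other null arrays. Their list median was -1.28 over all arrays and -0.78 without that array, and their part in the receptor values was not tested. The 9 immature neuron markers had a median of -0.08 with 0 passing limma's adjusted test over all arrays and 1 higher at an unadjusted p under 0.05. Without null replicate 1 their median turned to 0.34 and 2 rose, where 0.993% of all genes did. At an unadjusted p under 0.05, 7 of the 9 were then higher, where 7.63% of all genes were. The 8 sustentacular cell markers had medians of -0.26 and, without that array, -0.59, where 1 fell against 1.67% of all genes. At an unadjusted p under 0.05, 5 of the 8 were then lower and 1 higher, where 8.68% and 7.63% of all genes were. The part of these cells was not tested either.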

How the data were processed

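RNA of sorted cells was labelled with biotin and hybridised to 1 Affymetrix 1.0 ST array per sample, 3 per genotype, per the labels and the series' design text. The authors deposited log2 signals per probe set, and the submitters' processing notes name GCRMA and Affymetrix Expression Console. The log base was read from the values, and the build, filters and any batch correction are not given in the sources used here. GCRMA subtracts an estimated background, which can shrink differences between dim signals. Scanner files were not used here, so signal over background was not examined per probe.

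Of 35557 probe sets, 21789 carried 1 symbol in a platform annotation of GEO, 1621 several and 12147 were not listed. Symbols were updated by Entrez number through RefSeq (GRCm38.p6), which matched for 21698. Where a gene had several probe sets, the brightest by its 6-array mean was kept. Each of the 51 receptors had 1 probe set. The other genes were not filtered on low values, which left 19938.

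The comparison of genotypes used limma 3.58.1 under R 4.3.3 (two-sided lmFit and eBayes fits, Benjamini-Hochberg over all genes, threshold 0.05), and every adjusted p is from limma. The procedure was tested on simulated data. Intervals are limma's at 95%. An exact test of 3 against 3 arrays cannot go below p = 0.1 and was not run. The number of arrays limits precision, and since separate embryos are not stated, a p-value here reflects sample-to-sample spread only, which may be technical. Members and lists were chosen with earlier results of these data known. Named receptors are those called over all arrays or without null replicate 1, the 2 lowest and 2 highest differences of each number range, and the 5 with the brightest heterozygous probe sets. Others are named after their values were seen. Of each list, members past the threshold (at most 4) or the 2 with the smallest p could be named. Alternatives are given in the closing section. Marker lists not given in the report had medians over all arrays of 0.00 (progenitors), 0.44 (ensheathing glia), 0.63 (erythroid cells) and 0.41 (vomeronasal neurons), and without null replicate 1 of 0.29, 0.11, -0.06 and 0.43.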

Additional observations from a re-analysis of the deposited data

How the results depend on the processing

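The counts of receptors that fell and rose, 2 and 0, were the same after quantile normalisation, centring on the median of all genes, averaging of probe sets, and trend and robust settings of eBayes. The count that fell was 0 after centring on the other odorant receptors, 0 among the 16 receptors left when only genes with a mean over the median gene's were kept (a filter that removes both called receptors), 0 with the replicate number as a block, and 7 with array weights, where 1 rose. Leaving out 1 array gave 0 to 6 that fell and 0 to 1 that rose. The fit without null replicate 1 with arrays centred on the other receptors was added after seeing the data, and there 5 fell and 19 rose, in a scale that moved the median of all genes to 0.68. The cause of the other changes was not tested.

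With the other receptors as the centre the medians were 0.59 over all 51, and 0.67, 0.85 and 0.39 for Olfr1372 to Olfr1396, Olfr311 to Olfr331 and Olfr376 to Olfr412, and without null replicate 1 they were 0.44, 0.46, 0.84 and 0.38. Among the receptors that the naming rule picked, that centring also turned the sign of Olfr325 (0.23), Olfr376 (0.93), Olfr401 (0.47), Olfr410 (0.20) and Olfr411 (0.59). With null replicate 1 left out as well, it turned Olfr376 (0.67), Olfr401 (0.38), Olfr410 (0.44) and Olfr411 (0.92). Receptors not picked turned too wherever a negative difference was smaller in size than the 0.99 added over all arrays. The median of Olfr1372 to Olfr1396 was 0.15 under the filter, and that of Olfr311 to Olfr331 was 0.17 with array weights, as Olfr411 was at 0.22.

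Over the fits leaving out 1 array, medians ran from -0.51 to -0.22 over all 51, from -0.45 to -0.16 for Olfr1372 to Olfr1396, from -0.30 to 0.18 for Olfr311 to Olfr331, and from -0.79 to -0.27 for Olfr376 to Olfr412. Among the receptors that the naming rule picked, those that changed sign there were Olfr1395 (-0.12 to 0.95), Olfr376 (-0.17 to 0.06, the latter 0.057 without heterozygous replicate 1), Olfr394 (-0.28 to 0.41) and Olfr411 (-0.75 to 0.27). Of all 51 receptors, 8 had opposite signs with and without null replicate 1. The labels number the arrays but state no pairing, and the main fit did not pair them. Same-numbered arrays deviated from their group means with correlations of 0.23, -0.33 and 0.54. Deviations within a group cancel out for each gene, and null replicate 1 stood apart, so these correlations cannot settle whether samples were paired.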
